A study of Mus musculus with 8 samples.

Results

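Flt1 and Kdr, which encode receptors for vascular endothelial growth factor (VEGF), and Cdh5, which encodes VE-cadherin, were described in the hearts of female and male mice. These 3 genes were chosen by their measured female over male ratios over both ages on these same arrays, so their ratios are given as a description, with no test. The genes Tek, Tie1, Pecam1, Eng, Vegfa, Vegfb and Nrp1 were added by name. Of the 10 genes, 8 had a feature with that symbol on the array, with 11 features of 9607 in all. Kdr, Vegfa and Nrp1 had 2 features each. Pecam1 and Eng were not analysed here.

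The study compared the sexes in whole hearts of C57BL/6 mice, an inbred strain, at 2 and 8 months of age, and the labels name no treatment or genetic change. For each sex and age, RNA of 6 hearts was combined into 1 pool, giving 4 pools. Each of 8 arrays carried the female and the male pool of 1 age, labelled with the dyes Cy3 and Cy5, and there were 4 arrays per age. The female pool was in Cy3 on replicates 1 and 3 and in Cy5 on replicates 2 and 4. All arrays of an age measured the same 2 pools, so an SD at 1 age is the spread of technical arrays and says nothing of the spread between animals. Values are log2 ratios of female over male, so a negative value is a lower signal in the female pool. Each age is summarised by averaging the 2 dye orientations, which removes an additive dye effect.

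VEGF ligands are secreted in response to low oxygen and other cues and bind receptor tyrosine kinases on endothelial cells, the cells that line blood vessels. Kdr carries most of the signal for growth, survival and permeability, while Flt1 binds VEGF tightly, signals weakly and can act as a decoy, also in a soluble form. VE-cadherin holds neighbouring endothelial cells together at adherens junctions, where it associates with Kdr and restrains its signal. The heart muscle is densely supplied with capillaries, and its endothelial cells are among its most numerous cell types.

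The promoters of both receptor genes are shown because these receptors are at the centre of the comparison and both had lower values in females. The sequences are from RefSeq on the mouse build GRCm38.p6, and 7 of the 8 genes had an entry. Flt1 and Kdr both lie on the minus strand of chromosome 5, and each window holds the 250 bases before the gene's annotated start, chr5:147726012-147726261 for Flt1 and chr5:75978456-75978705 for Kdr, written 5′ to 3′ on the gene's strand. Capitals mark the GC box (GGGCGG, here found as its reverse complement CCGCCC) and the TATA box (TATAAA).
Flt1: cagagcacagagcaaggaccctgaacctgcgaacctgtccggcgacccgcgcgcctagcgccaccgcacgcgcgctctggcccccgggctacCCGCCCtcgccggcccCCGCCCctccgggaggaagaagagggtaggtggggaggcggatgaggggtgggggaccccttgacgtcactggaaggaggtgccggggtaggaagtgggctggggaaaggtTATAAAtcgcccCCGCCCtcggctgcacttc
Kdr: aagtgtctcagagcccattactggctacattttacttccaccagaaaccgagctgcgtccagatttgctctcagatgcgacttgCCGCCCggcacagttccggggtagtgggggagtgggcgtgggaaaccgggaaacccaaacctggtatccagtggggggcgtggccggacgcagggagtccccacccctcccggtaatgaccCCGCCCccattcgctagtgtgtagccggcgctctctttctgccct
The Flt1 window held 3 GC boxes, with first bases at -158, -142 and -19 from the start, and a TATA box at -31. The Kdr window held 2 GC boxes, at -166 and -45, and no TATA box. Among all 32851 windows of this length, 32.7% held a GC box on either strand and 12.4% a TATA box. Base composition was 70.4% G and C for Flt1 and 61.6% for Kdr, against a median of 52.4% over all windows. Also searched on both strands were CCGGAAG and ACAGGAAG (ETS factors, in 6.91% and 2.90% of all windows), GATAA (GATA factors, 22.6%), ACGTG (the hypoxia response core, 16.6%), TGTTTA (forkhead factors, 12.0%) and ACAATG (SOX factors, 10.7%). None of these 6 exact strings was in the Flt1 or the Kdr window, and other forms of these sites were not searched. The marked motifs do not overlap one another in these windows, and a match is a run of letters, not a measured binding site.

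The sex labels of the pools were checked first. Xist, transcribed from the inactive X chromosome, was at 2.44 ± 0.89 (SD, n = 4 arrays) at 2 months and 3.45 ± 0.85 at 8 months, and it was positive on 8 of 8 arrays. The Y-linked genes Kdm5d and Eif2s3y were negative on all 8. Replicates 1 and 2 at 8 months stood apart from the other arrays: their interquartile ranges were 1.18 and 1.56, while those of the other 6 arrays lay between 0.30 and 0.46. On these 2 arrays the ratios followed the feature number. The SD of a running median along the feature number was 0.51 and 0.82 there and 0.03 to 0.07 on the other 6. For that reason the 8-month values of the 8 genes are repeated with replicates 3 and 4 alone, and with the running median subtracted from every array (trend removed) where that bears on them. For the other genes named, the 8-month value from replicates 3 and 4 is given where it differs by over 1.5 times. The table holds ratios and no signal levels, so whether the markers of heart muscle or endothelium were abundant could not be checked. Where a vessel gene is lower in a whole-heart pool, fewer endothelial cells and less RNA per cell cannot be told apart.

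Flt1 had the lowest value of the 8 genes over both ages, -0.60, or 1.52-fold lower in females. At 2 months its ratios on replicates 1 to 4 were -0.18, -0.80, 0.19 and -1.24. At 8 months they were 0.13, -2.08, -0.13 and -0.68. Flt1 was negative on 6 of 8 arrays, and the lowest values of each age came from the arrays with the female pool in Cy5.

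The mean of Flt1 was -0.51 ± 0.64 (SD, n = 4 arrays) at 2 months and -0.69 ± 0.99 at 8 months. With the female pool in Cy3 the mean was 0.01 at 2 months and close to 0 at 8 months. With the female pool in Cy5 it was -1.02 and -1.38. The gap between the orientations was -1.03 at 2 months and -1.38 at 8 months, and only 2.59% and 2.36% of all tested rows had a lower gap. At 8 months the running median at its place was 0.52 on replicate 1 and -0.97 on replicate 2, so the gap at that age also holds the trend. With the trend removed, the 8-month arrays were at -0.39, -1.11, -0.09 and -0.68, and 7 of 8 arrays were negative. Both 8-month arrays with the female pool in Cy3 were then below 0, and still above those in Cy5. At 8 months the value was -0.41 from replicates 3 and 4, -0.57 with the trend removed, -0.34 without replicate 2 and -1.04 without replicate 4.

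Kdr was lower in females on every array once its 2 features were averaged, with a value of -0.49 over both ages, or 1.41-fold. The mean of the features on replicates 1 to 4 was -0.50, -0.51, -0.42 and -0.32 at 2 months. At 8 months it was -0.70, -0.54, -0.39 and -0.55. Its value was -0.44 ± 0.09 (SD, n = 4 arrays) at 2 months and -0.55 ± 0.13 at 8 months, and no array reached 0.

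Taken apart, the features of Kdr were less even. Feature 7332 read -0.59, -0.32, -0.57 and 0.09 at 2 months, with a mean of -0.35 ± 0.32. Feature 13197 read -0.41, -0.69, -0.27 and -0.72, with a mean of -0.52 ± 0.22. Feature 7332 was the lower with the female pool in Cy3 and feature 13197 with the female pool in Cy5, so the 2 dye gaps (0.46 and -0.36) nearly cancelled in their mean.

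At 8 months feature 7332 read 0.28, -1.36, -0.35 and -0.45, and feature 13197 read -1.69, 0.28, -0.43 and -0.65. On replicates 1 and 2 the features thus had opposite signs. The running median at their places on these arrays was also opposite: 0.59 and -1.10 around feature 7332, and -1.12 and 0.97 around feature 13197. These opposite trends partly cancelled in the mean of the features. With it removed, feature 7332 was at -0.31, -0.27, -0.30 and -0.47, and feature 13197 at -0.57, -0.69, -0.49 and -0.59. The SD of the 4 arrays dropped from 0.68 to 0.09 and from 0.81 to 0.08, and all 8 of these values were negative.

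**Figure D1:**
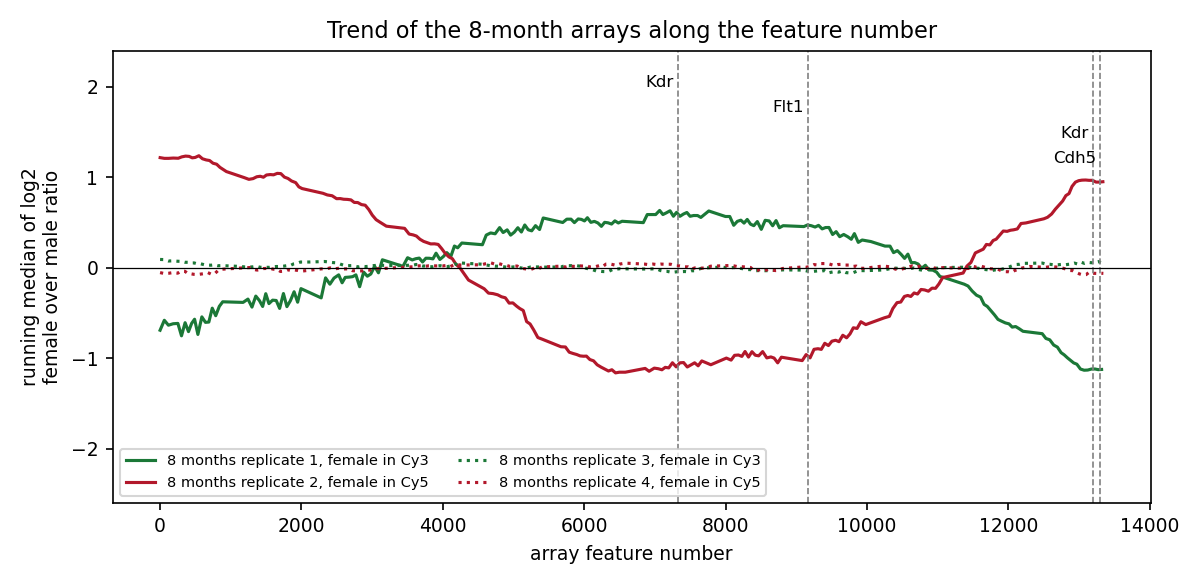
Running median of the log2 female over male ratio (vertical axis) along the feature number of the array (horizontal axis) for the 4 arrays at 8 months; dashed lines mark the features of Flt1, Kdr and Cdh5. Replicates 1 and 2 swing in opposite directions, with SDs of 0.51 and 0.82, while replicates 3 and 4 stay near 0, and the 2 Kdr features lie on opposite sides of the swing.

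Nrp1 encodes neuropilin, a co-receptor that presents VEGF to Kdr. Its features averaged -0.18, -0.15, -0.24 and 0.02 at 2 months and -0.85, -0.61, -0.29 and -0.18 at 8 months. It was negative on 7 of 8 arrays, with -0.14 ± 0.11 (SD, n = 4 arrays) at 2 months and -0.48 ± 0.30 at 8 months. Over both ages it was at -0.31 and did not pass the test (limma, adjusted p = 0.537). Feature 6443 had 1 array far below the others at 8 months, replicate 2 at -1.70, where the running median was -1.16. Feature 13267 read -1.41 on replicate 1 and 0.49 on replicate 2, and between -0.46 and -0.26 on all 4 arrays at 8 months with the trend removed. From replicates 3 and 4, the 8-month value of the gene was -0.23.

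**Figure D2:**
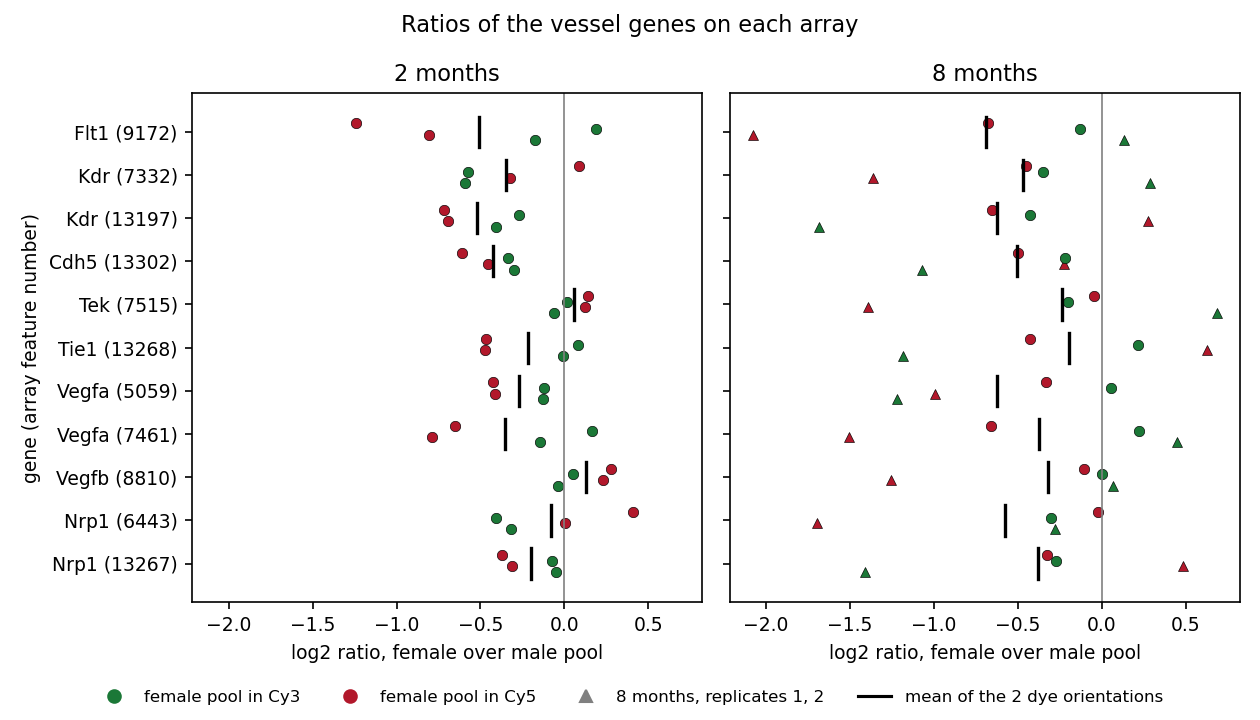
Log2 female over male ratio (horizontal axis) of each of the 11 features of 8 genes (vertical axis, feature number in brackets) on each array, at 2 months and at 8 months; colour gives the dye of the female pool, triangles are replicates 1 and 2 at 8 months, and bars are the mean of the 2 dye orientations. Cdh5 lies below 0 on all 8 arrays, and Flt1 lies lowest on arrays with the female pool in Cy5.

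Among the ligands, Vegfa, the main activator of Kdr, was the lowest. Its features averaged -0.14, -0.60, 0.02 and -0.54 at 2 months and -0.39, -1.25, 0.14 and -0.50 at 8 months. The value was -0.31 ± 0.30 (SD, n = 4 arrays) at 2 months and -0.50 ± 0.57 at 8 months, and 6 of 8 arrays were negative. Over both ages Vegfa was at -0.41 and was not called (limma, unadjusted p = 0.0207, adjusted p = 0.390). Like Flt1 it was lower on arrays with the female pool in Cy5, with means of -0.57 and -0.87 against -0.06 and -0.12 in Cy3. At 8 months the features differed in this. Feature 7461 was at 0.33 in Cy3 and -1.08 in Cy5, where the running median was 0.59 on replicate 1 and -1.10 on replicate 2. Feature 5059 was at -0.58 and -0.66. With the trend removed the 8-month value of the gene was -0.43. From replicates 3 and 4 the 8-month value was -0.18.

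Vegfb, a ligand of Flt1 that is abundant in heart muscle, read -0.04, 0.23, 0.05 and 0.27 at 2 months. At 8 months it read 0.07, -1.26, 0.00 and -0.10. Its value was 0.13 ± 0.15 (SD, n = 4 arrays) at 2 months and -0.32 ± 0.63 at 8 months. The 8-month value rested on replicate 2, where the running median was -1.01: from replicates 3 and 4 it was -0.05. Over both ages Vegfb was at -0.10 (limma, adjusted p = 0.896). Of the 5 VEGF ligands, all measured, 5 were negative at 8 months and 1 at 2 months, against 55.0% and 53.6% of all rows. From replicates 3 and 4 their 8-month median was -0.05, with values from -0.32 for Pgf to -0.01 for Vegfd. Pgf, placental growth factor and a further ligand of Flt1, was at 0.05 ± 0.17 at 2 months and -0.41 ± 0.20 at 8 months.

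The receptors Tek and Tie1 belong to the angiopoietin system, which stabilises vessels, and serve as markers of endothelium. Tek read -0.06, 0.12, 0.02 and 0.14 at 2 months and 0.68, -1.39, -0.20 and -0.05 at 8 months. The value of Tek was 0.05 ± 0.10 (SD, n = 4 arrays) at 2 months and -0.24 ± 0.86 at 8 months, and its arrays fell on both sides of 0. Tek and Tie1 were at -0.12 and -0.11 at 8 months from replicates 3 and 4. Tie1 read -0.01, -0.47, 0.08 and -0.47 at 2 months and -1.18, 0.63, 0.21 and -0.43 at 8 months. Its value was -0.22 ± 0.30 and -0.19 ± 0.79, with 5 of 8 arrays negative. Neither passed the test over both ages (limma, adjusted p = 0.881 for Tek at -0.09 and 0.667 for Tie1 at -0.21). Without replicate 2 at 8 months, Tek at 8 months was at 0.10, and without replicate 1 Tie1 was at 0.16, so neither had a settled direction at that age. Angpt1, a ligand of Tek, was at -0.15 ± 0.40 and -0.08 ± 0.41.

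Cdh5, the junction gene, was negative on 8 of 8 arrays. Its ratios were -0.30, -0.45, -0.34 and -0.61 at 2 months and -1.07, -0.23, -0.22 and -0.50 at 8 months. The value was -0.43 ± 0.14 (SD, n = 4 arrays) at 2 months, -0.50 ± 0.40 at 8 months and -0.46 over both ages, or 1.38-fold lower in females. Both dye orientations were negative at both ages, with -0.32 and -0.53 at 2 months and -0.64 and -0.36 at 8 months. From replicates 3 and 4 the 8-month value was -0.36, and without replicate 1 it was -0.29.

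Unlike the Kdr features, Cdh5 did not become more even when the trend was removed. Its 8-month arrays were then at 0.06, -1.18, -0.27 and -0.44, and the SD went from 0.40 to 0.53. The running median at its place was -1.13 on replicate 1 and 0.95 on replicate 2, close to that at Kdr feature 13197. With the trend removed the value was -0.46, and 7 of 8 arrays were negative.

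**Figure D3:**
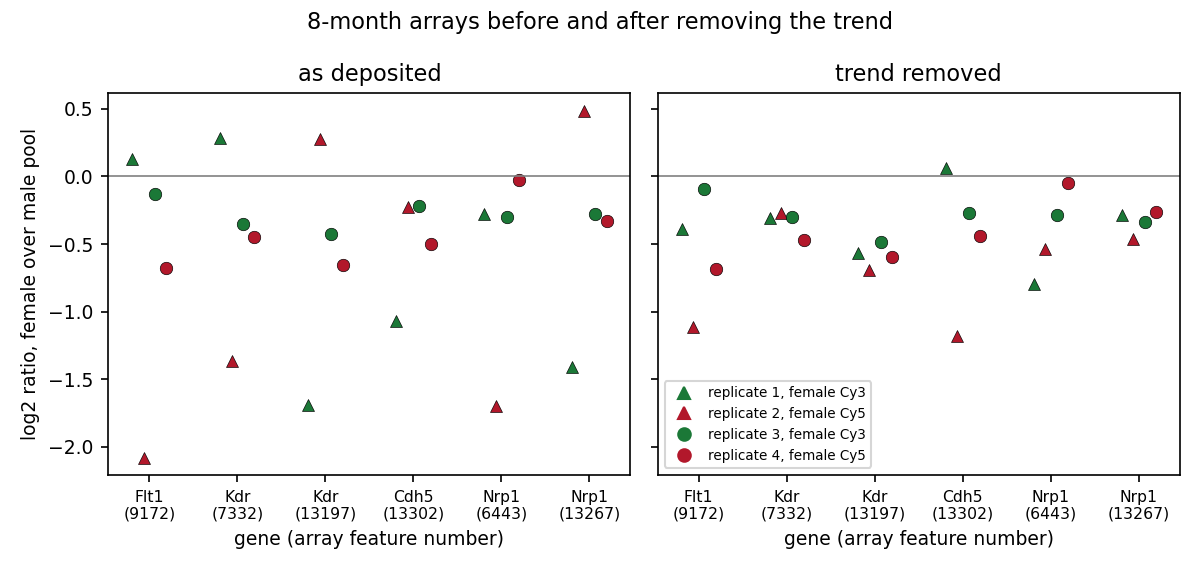
Log2 female over male ratio (vertical axis) of the features of Flt1, Kdr, Cdh5 and Nrp1 (horizontal axis) on the 4 arrays at 8 months, as deposited and with the running median along the feature number removed; triangles are replicates 1 and 2, circles replicates 3 and 4. The SD of both Kdr features drops to 0.09 and 0.08, while that of Cdh5 goes from 0.40 to 0.53.

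In order of the value over both ages, the genes were Flt1 (-0.60), Kdr (-0.49), Cdh5 (-0.46), Vegfa (-0.41), Nrp1 (-0.31), Tie1 (-0.21), Vegfb (-0.10) and Tek (-0.09). Each gene differed from its neighbour in this order by less than the array SD of 1 of the pair at 8 months. Of all 7812 tested rows, 94 were lower than Flt1, 182 lower than Kdr and 220 lower than Cdh5, which is 1.20%, 2.33% and 2.82%. A negative value over both ages was held by 54.9% of all rows, and by all 5 genes added by name. A negative value at both ages was held by 33.0% of all rows and by Nrp1, Vegfa and Tie1 of those 5. Kdr, as the mean of its features, and Cdh5 were negative on all 8 arrays, as were 1.54% of the rows measured on all 8. Taken apart, Kdr feature 7332 was negative on 6 of 8 arrays and feature 13197 on 7 of 8. Kdr and Cdh5 were chosen on the same ratios, so nothing is read from these counts.

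None of the 8 genes reached 1.5-fold with 1 sign on all arrays of an age (the size rule). Lower values in females passed that rule in 1.77% of rows at 2 months and 1.31% at 8 months. The difference of the ages was small for the 3 chosen genes: 8 minus 2 months was -0.18 for Flt1, -0.11 for Kdr and -0.08 for Cdh5. All were under the array SD of 8 months. No gene of the 8 differed by 1.5-fold with no overlap between the arrays of the ages, which 3.29% of rows did. With 1 pair of pools per age, neither an age nor the difference of the ages can be tested across animals. Over both ages the test has n = 2 pairs of pools, and limma called 0.0896% of rows at an adjusted p below 0.05, while 10.4% had an unadjusted p below 0.05 and 6.40% were lower in females at that level.

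**Figure D4:**
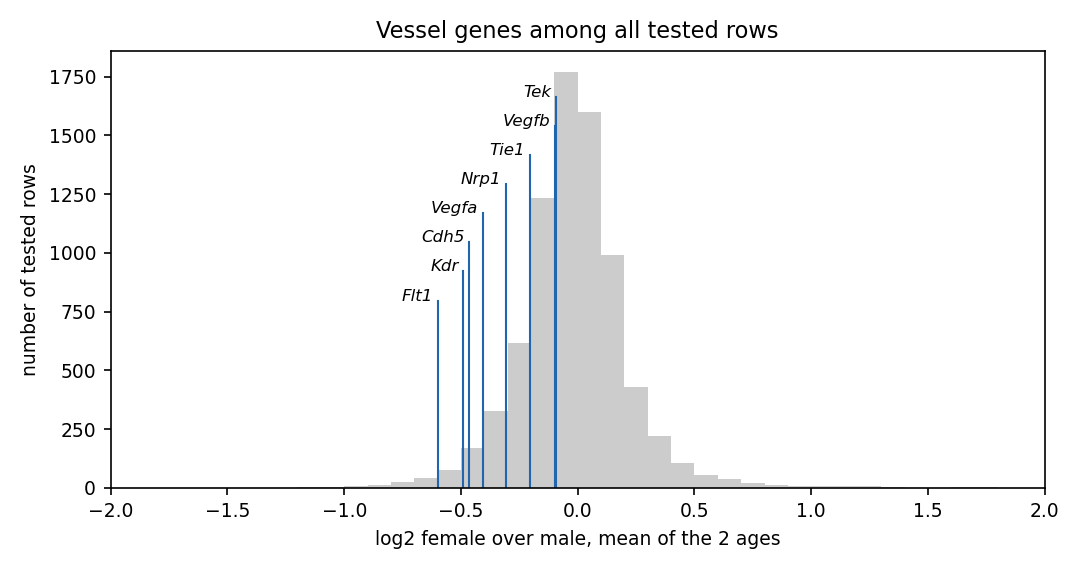
Number of tested rows (vertical axis) by log2 female over male ratio over both ages (horizontal axis, drawn from -2 to 2), with blue lines at the values of the 8 genes; the height of a line has no meaning. All 8 lie below 0, with Flt1 at -0.60 and Tek at -0.09.

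Other genes of the vessel were taken from 11 lists by role, of which 121 of 217 genes were measured, 118 of them besides Flt1, Kdr and Cdh5. These 118 genes had a median of -0.09 over both ages, against -0.02 over all rows. A negative value over both ages was held by 83 of them (70.3%), and a negative value at both ages by 52 (44.1%). In all rows these shares were 54.9% and 33.0%. With 8 months from replicates 3 and 4, 77 were negative over both ages, and none was called. The share of all rows negative in that setting was not counted. In that setting limma gave 6 lower and 4 higher at an unadjusted p below 0.05. Of all 7798 rows tested there, 662 had such a p, in either direction. With all arrays limma called none of the 118. At an unadjusted p below 0.05, 10 (8.47%) were lower in females and 4 (3.39%) were higher. In all rows 10.4% had such a p, and 6.40% were lower in females at that level. By the size rule, 4 (3.39%) were lower and 3 (2.54%) higher in females at 2 months, and 1 (0.847%) was lower and 1 higher at 8 months. In all rows the rule gave 2.41% higher at 2 months and 1.68% higher at 8 months.

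Aplnr, which encodes the apelin receptor of endothelial cells, was lower than any of the 3 chosen genes. It was at -0.89 ± 0.26 (SD, n = 4 arrays) at 2 months and -0.82 ± 0.45 at 8 months, negative on 8 of 8 arrays, and passed the size rule at both ages. Over both ages it was at -0.86 and was not called (limma, adjusted p = 0.188). Negative on all 8 arrays were also Tjp1, Ets2 and Pik3ca, of which Tjp1 and Pik3ca are named after their values were seen. Cdh5 had the smallest difference of the 3 chosen genes, and its nearest neighbours in the lists that were not chosen were Mapkapk2 at -0.51 and Jup at -0.42.

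**Figure D5:**
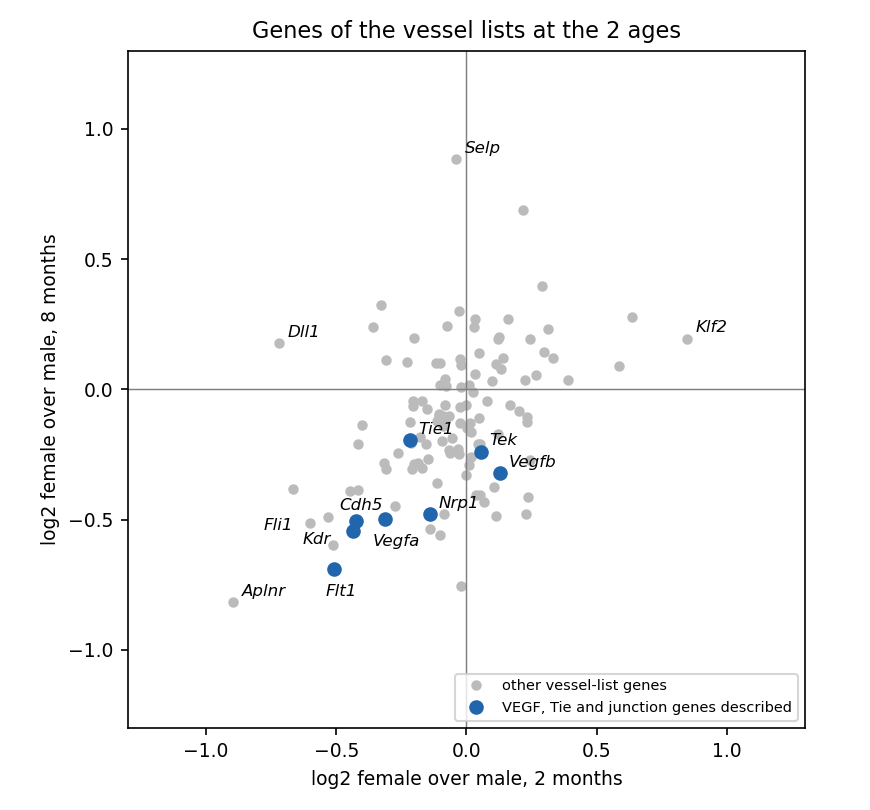
Log2 female over male ratio at 2 months (horizontal axis) and at 8 months (vertical axis) of the measured genes of the vessel lists; blue points are the 8 genes described and grey points the others. Aplnr lies lowest at both ages, at -0.89 and -0.82, and Klf2, Selp and Dll1 lie away from the diagonal.

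Of the endothelial junction genes 8 of 17 were measured. The 7 besides the chosen Cdh5 were negative over both ages, as were 54.9% of all rows. Their median was -0.18, with values from -0.42 for Jup to -0.01 for Ceacam1. Plakoglobin (Jup), which binds cadherin tails, was at -0.45 ± 0.62 (SD, n = 4 arrays) at 2 months and -0.39 ± 0.89 at 8 months. Cldn5, the claudin of endothelial tight junctions, was at -0.42 ± 0.72 and -0.39 ± 0.25. From replicates 3 and 4 at 8 months, 5 of the 7 were negative, with a median of -0.08 at that age, and Jup was at -0.17. The lowest adjusted p among the 7 was 0.364 by limma. Nrp2, the other co-receptor measured, was at -0.15 ± 0.15 and -0.27 ± 0.57.

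Among 13 of 22 endothelial transcription factors, 8 were negative over both ages. Fli1, an ETS factor, was at -0.60 ± 0.29 (SD, n = 4 arrays) at 2 months, past the size rule, and -0.52 ± 0.88 at 8 months. Ets2 was at -0.10 ± 0.08 and -0.56 ± 0.81. Fli1 and Ets2 were at -0.26 and -0.19 at 8 months from replicates 3 and 4. Klf2, which responds to blood flow, was higher in females at 2 months, at 0.85 ± 0.06, and at 0.19 ± 0.32 at 8 months, with no overlap of the ages. Its 8-month value was 0.47 from replicates 3 and 4.

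The surface and identity genes, 26 of 45 measured, had a median of -0.08 over both ages, with 17 negative. Their values ranged from -0.86 to 0.42. The endothelial markers Emcn and Egfl7 were at -0.07 and -0.12 over both ages, each negative on 4 of 8 arrays. Ace, angiotensin-converting enzyme, was at -0.27 ± 0.09 (SD, n = 4 arrays) and -0.45 ± 0.74. Selp, the P-selectin that tethers white blood cells, was at -0.04 ± 0.48 at 2 months and 0.88 ± 0.22 at 8 months, where it passed the size rule. Klf2, Selp, Ephb4 and Fabp4 were the 4 of 118 genes (3.39%) that differed between the ages by the rule above; Ephb4 and Fabp4 are named after their values were seen. Ephb4 was at -0.36 ± 0.16 and 0.24 ± 0.49, and Fabp4 at 0.24 ± 0.07 and -0.41 ± 0.35. With 8 months from replicates 3 and 4, Selp and Fabp4 still passed. Klf2, with a difference of -0.38, and Ephb4, at 0.06 at 8 months and with a difference of 0.42, no longer reached 1.5-fold. Aldoa, Pfkfb4 and Rcan1, named after their values were seen, passed in that setting, which made 5 genes of 118. Of all 7798 rows in that setting, 259 passed with a positive and 211 with a negative difference of the ages. Reln was the only lymphatic gene measured of 6, at 0.13 ± 0.11 and 0.20 ± 0.49.

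Downstream of the receptors, 32 of 56 signalling genes were measured, with 23 negative and a median of -0.07 over both ages. Mapk14, the stress kinase p38 alpha, was at -0.66 ± 0.70 (SD, n = 4 arrays) at 2 months, past the size rule, and -0.38 ± 1.16 at 8 months. Its substrate Mapkapk2 was at -0.53 ± 1.11 and -0.49 ± 0.77. The 8-month values from replicates 3 and 4 were -0.09 for Mapk14 and -0.31 for Mapkapk2. Prkcb, a protein kinase C, was higher in females at 2 months by the size rule, at 0.64 ± 0.36, and at 0.28 ± 0.71 at 8 months. Of 15 of 20 genes of BMP and TGF-beta signalling, 9 were negative, with a median of -0.03. Tgfbr2 was at -0.51 ± 0.89 and -0.60 ± 1.10, Bmpr2 at -0.02 ± 0.14 and -0.75 ± 1.35, and Bmp6 at -0.20 ± 0.11 and -0.29 ± 1.03. Without the 2 arrays with a trend Bmpr2 was at -0.07 and Bmp6 at -0.02 at 8 months.

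Of 11 Notch genes 3 were measured. The ligand Dll1 was at -0.72 ± 0.56 (SD, n = 4 arrays) at 2 months, past the size rule, and 0.18 ± 0.48 (n = 3) at 8 months. The target Hey1 was at 0.25 ± 0.12 and -0.27 ± 0.62, and Rbpj at 0.05 ± 0.11 and -0.21 ± 0.59. Replicates 3 and 4 alone gave -0.04, -0.15 and 0.01 for Dll1, Hey1 and Rbpj at 8 months. In the hypoxia pathway, which drives Vegfa, 11 of 25 genes were measured and 6 were negative, with a median of -0.04. Pfkfb3, a glycolytic regulator, was higher in females at 2 months by the size rule, at 0.59 ± 0.19, and at 0.09 ± 0.59 at 8 months. Pfkfb4 was at 0.22 ± 0.25 and 0.69 ± 0.51, and Hmox1 at -0.31 ± 0.18 and -0.30 ± 0.54, or -0.03 at 8 months from replicates 3 and 4. Pfkfb4 passed the size rule at 8 months in that setting, at 0.80.

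Markers of other cell types differed between the pools as well, and their part in the values of the vessel genes was not tested. T cell and thymus genes were higher in females at 2 months: 9 of 10 measured genes, of 14 listed, passed the size rule, with a list median of 2.63, against 0.15 at 8 months (0.27 from replicates 3 and 4). Rag1, which rearranges antigen receptors in the thymus, was at 4.48 ± 0.60 (SD, n = 4 arrays) and 1.15 ± 0.90, past the rule at both ages. The other 8 were Cd3e, Cd3g, Cd3d, Cd8a, Cd4, Dntt, Lat and Ccl25, at 0.69 to 3.74 at 2 months. All 5 measured fat cell genes of 11 passed it at 2 months, with a median of 1.79 and Ucp1, the heat-producing protein of brown fat, at 2.99 ± 0.21, and the others were Cidec, Fasn, Scd1 and Car3. All 4 measured lung genes of 7 passed it too. Sftpc, a surfactant protein, was at 1.76 ± 0.31 and 3.12 ± 1.65, and Sftpd, Scgb1a1 and Scgb3a1 passed at 2 months. At 8 months the fat and lung medians were 0.26 and 0.17, and Sftpc, at 3.12, passed the size rule at that age as well.

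Cells that sit near the endothelium were also examined. Of the 13 mural cell genes 8 were measured, 6 of them negative over both ages, with a median of -0.10. Rgs5, a pericyte marker, was at -0.43 ± 0.42 (SD, n = 4 arrays) and -0.72 ± 1.53, Pdgfrb, the pericyte receptor for PDGF, at -0.62 ± 0.46 (past the size rule at 2 months) and -0.33 ± 0.77, and Cnn1, of smooth muscle, at 0.44 ± 0.14 and 0.00 ± 0.83. Replicates 3 and 4 alone gave -0.66 for Pdgfrb and -0.26 for Cnn1 at 8 months. The macrophage genes, 11 of 14 measured, were all negative at 2 months, with a median of -0.48, and 3 were negative at 8 months, with a median of 0.23. Of all rows, 53.6% were negative at 2 months and 55.0% at 8 months. Ccr2 at -0.82 ± 0.40 and Cx3cr1 at -0.65 ± 0.19 passed the size rule at 2 months, and C1qa was at -0.80 ± 0.97. Monocytes and macrophages can also carry Flt1.

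Cardiomyocyte genes had a median of -0.10 over both ages, with 6 of 11 negative of 15 listed. Myh6, the adult heart myosin, was at -0.28 ± 0.34 (SD, n = 4 arrays) and -0.36 ± 0.62, Tnnt2 at 0.01 ± 0.27 and -0.66 ± 0.75, and Ryr2 at -0.15 ± 0.17 and -0.39 ± 0.10. Over both ages the list ranged from -0.33 to 0.07, with Actc1 at -0.22, Tnni3 at 0.07 and Myl2 at 0.02. From replicates 3 and 4 at 8 months, Myh6 was at -0.20, Tnnt2 at -0.21, Actc1 at -0.14, Tnni3 at -0.06 and Myl2 at 0.07. Of 12 fibroblast genes 7 were measured, with a median of -0.09. Lum passed the size rule at 8 months, at 0.67 ± 0.34, while Gsn was at -0.10 ± 0.43 and -0.50 ± 1.26 and Dcn at -0.15 ± 0.12 and -0.30 ± 0.31. Gsn and Dcn were at -0.19 and -0.08 at 8 months from replicates 3 and 4. Of 10 blood cell genes 6 were measured, with a median of -0.43 at 2 months and 0.45 at 8 months. Ppbp, of platelets, passed at 2 months at -0.95 ± 0.11, and Slc4a1, of red cells, at 8 months at 0.71 ± 0.08. Alas2 was at 0.18 ± 0.17 and 0.62 ± 0.87, and Car2 at 0.47 ± 0.26 and 0.84 ± 0.70.

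The array patterns of the 3 chosen genes were not alike. Over the 8 arrays, Pearson's r was -0.13 between Flt1 and Kdr, -0.27 between Flt1 and Cdh5 and 0.54 between Kdr and Cdh5. Without the 2 arrays with a trend it was -0.17, 0.88 and -0.11 over 6 arrays. Among 5632 other genes measured on all 8 arrays, the patterns most like Flt1 were those of Akt2 (r = 0.997), Wnt5a (0.996), Psmd13 (0.994), Bmp5 (0.993) and Cpt1b (0.992). Those most like Kdr were Scaf1 (0.930), Itgb4 (0.923), Slc23a2 (0.922), Sugp2 (0.883) and Pik3r3 (0.880). Those most like Cdh5 were Rbfox3 (0.983), Rnd2 (0.983), Dusp7 (0.981), Arel1 (0.979) and Bmp1 (0.975). Over the 6 arrays without a trend, 1 of the 5 nearest genes of Flt1 was the same (Psmd13) and none of those of Kdr or Cdh5, so these neighbours depend on the arrays used. The 8 points share dye orientation, pools and, on 2 arrays, the trend, and the feature of Rbfox3 lies 53 feature numbers from that of Cdh5.

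The tested genes nearest to Flt1, Kdr and Cdh5 on their chromosomes, chosen after their values were seen, did not share their ratios as a group. Genes without a tested row were skipped. Beside Flt1 on chromosome 5, Polr1d was at -0.32, Gtf3a at 0.01, Slc46a3 at 0.04 and Mtus2 at 0.15 over both ages. Beside Kdr on the same chromosome, Kit, the stem cell factor receptor, was at -0.31 ± 0.28 (SD, n = 4 arrays) at 2 months and -1.13 ± 0.21 (n = 3) at 8 months. Over both ages Kit was at -0.72, lower than Flt1, Kdr and Cdh5. Pdgfra, Srd5a3 and Tmem165 near it were at -0.09, 0.15 and -0.06. Beside Cdh5 on chromosome 8, Cdh16 was at -0.61 ± 0.45 and 0.10 ± 0.81, and Slc38a7, Ciao2b and 4930513N10Rik were at 0.03, 0.03 and 0.17 over both ages. None of these neighbours was called by limma, with adjusted p-values of 0.364 to 0.992.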

How the data were processed

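The deposited table holds, per the labels and the values, 1 log10 ratio of Cy5 over Cy3 per array and feature, made by the authors with Feature Extraction 7.1.1; any further normalization, and any signal level, are not given in the sources used here. An exact 0 (6.38 to 13.9% of values per array, none of them on the 11 features described) was treated as no measurement. Ratios were turned to log2 of female over male, and rows with 1 symbol (6671, of which 6600 are in RefSeq for GRCm38.p6) were averaged by symbol. A row was tested with values on 3 of 4 arrays per age in both dye orientations, which left 7812 rows, 5851 with a symbol. The 2 age means were fitted with limma 3.58.1 in R 4.3.3 (lmFit and eBayes, two-sided, Benjamini-Hochberg), with 1 residual degree of freedom. On simulated data with 7812 rows, limma called 6 of 7612 unchanged rows, 80 of 100 at 2-fold and 99 of 100 at 4-fold. The simulated noise was independent and drawn from the variance prior that limma fitted, with the same change at both ages. It held no dye effect, trend or difference of the ages, so these counts do not give the power on the real arrays. There Sftpc, at 2.44 over both ages, was not called (limma, adjusted p = 0.127). Correlations and counts of lists are descriptions. The members and lists were chosen with earlier results of these data known. The genes named were the 8 described, each list's genes past the size rule and its 3 largest over both ages, and for Flt1, Kdr and Cdh5 the 5 genes of highest r. Emcn, Egfl7, Actc1, Tnni3 and Myl2 were added as markers of endothelium and heart muscle. The alternatives were keeping exact 0, 8 months from replicates 3 and 4, the trend removed, arrays centred or scaled, no filter, features kept apart, a plain mean, and each array left out. With 2 pairs of pools, the number of pools and arrays limits the precision.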

Additional observations from a re-analysis of the deposited data

Results flagged for a closer look

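In 22 groups of 4 arrays (each feature at each age), 1 array lay far from the other 3 in 2 groups, both at 8 months on replicate 2; about 1 in 20 such groups would do so by chance. Vegfb was at -1.26 on that array and Nrp1 feature 6443 at -1.70. Of 175 list genes besides the 8 described, 8 (4.57%) had every array of 2 months on one side of 0 and every array of 8 months on the other, as had 134 of all 7812 rows (1.72%). The difference of the ages was not tested, and the lists were chosen with earlier results known, so nothing is read from the shares. The change, 8 minus 2 months, was positive for the macrophage genes Adgre1 (0.79), Cd68 (0.78), Fcgr3 (0.99) and Mrc1 (0.81) and for the red cell gene Slc4a1 (1.04). It was negative for the T cell gene Cd3d (-1.005), for Fabp4 (-0.65), a fatty acid carrier of capillary endothelium and fat, and for Nppa (-0.57), the atrial natriuretic peptide of cardiomyocytes.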

How the results depend on the processing

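Of 524 values of the 8 genes under the alternatives, 188 equalled the reported value and 336 differed from it, 4 of these by over 1 SD of the arrays. That SD reached 0.99 at 8 months, so this count says little of stability: Flt1 at 8 months ranged from -1.04 to -0.34. The 4 came with arrays scaled to 1 spread: Cdh5 at 2 months was at -0.67, Kdr at 2 months at -0.72 and over both ages at -0.64, and its difference of the ages was 0.14. Flt1, Kdr and Cdh5 were negative at each age and over both ages under every alternative run, with ranges over both ages of -0.77 to -0.42, -0.64 to -0.41 and -0.58 to -0.36. Tek, Tie1 and Vegfb changed sign under some: over both ages Tek reached 0.08 and Vegfb 0.05, and Tie1 at 8 months reached 0.16. Flt1, Kdr and Cdh5 were chosen on these ratios and every alternative reuses these arrays, so nothing is read from their kept sign. The dye orientations taken alone were not among the alternatives. With the female pool in Cy3, Flt1 was at 0.0056 at 2 months and -0.0012 at 8 months. With the trend removed, its 8-month arrays in that orientation were at -0.39 and -0.09. The limma calls over all rows (7) were 0 with exact 0 kept (887 rows at an unadjusted p below 0.05), 1 from replicates 3 and 4, 4 with the trend removed, 3 with arrays scaled, 4 to 105 with each array left out and 71 over single arrays, which measures technical spread. Without 8-month replicate 1 there were 88 calls, without replicate 4 there were 105, and without 2-month replicate 4 there were 4. Rows past the size rule at 2 months (326) were 819 with arrays scaled. At 8 months (233) they were 228 to 533 with each array left out. Rows past the rule for the ages (257) were 470 from replicates 3 and 4, 449 with arrays scaled and 279 to 490 with each array left out. The share of calls over both ages that were higher in females was 71.4%, and 60.0% with arrays centred and 33.3% with arrays scaled. The cause of these changes was not tested. No paired analysis was possible because the 4 arrays of an age hybridised the same 2 pools, so a replicate number names a technical array. Signal over background is not given, so what it limits is unknown.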
